A study of Schizosaccharomyces pombe with 9 samples.

Results

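The 10 genes described here are regulators of sexual differentiation and parts of the mating pheromone pathway of the fission yeast Schizosaccharomyces pombe: ste11, map1, mei2, rep1, map2, mam2, map3, sxa2, spk1 and fus1. They were taken by name from the authors' gene tables, and each name matched 1 of the 6986 counted features. All 10 passed the filter on low counts that left 5951 genes for testing. RNA came from log phase, vegetative cultures in YES, a rich medium. The groups were STF6 and STF9, both suppressor mutants, and their parental strain rpb1-CTD-T4A29 (T4A below). T4A carries a Thr4 mutation of the repeated tail (CTD) of Rpb1, the largest subunit of RNA polymerase II, and the series title describes the suppressors by their effect on this mutation. Each group had 3 libraries, described as replicate experiments, and 1 strain number. Whether these were separate cultures is not stated, so p-values measure only the spread between libraries of 1 strain, which may be technical. The labels name neither the genes mutated in STF6 and STF9 nor the mating type of any strain.

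Fission yeast cells leave the mitotic cycle for mating when nutrients, above all nitrogen, run out. The HMG-box factor Ste11 then switches on mating genes, among them its own. P cells secrete P-factor and sense M-factor, M cells do the reverse, and each receptor signals through a G protein and a Ras-controlled MAP kinase cascade. In cells that grow in rich medium this programme is known to be largely off, and nitrogen starvation is what usually induces it. In bulk RNA, fewer cells that express a gene and less of its RNA per cell cannot be told apart.

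Libraries held between 15374453 and 22909747 counts. The first principal component set all 6 mutant libraries (11.4 to 16.2) apart from the T4A libraries, of which replicate 2 lay farthest out (−36.8, against −23.1 and −19.7 for replicates 1 and 3). That library also had the lowest scaling factor, 0.859, against 0.978 to 1.09 in the other 8. As a check of the labels, pho1, the acid phosphatase gene whose repression the suppressors relieve, stood at 6017 to 6082 CPM in STF6 and 4985 to 5316 CPM in STF9, against 94.3 to 127 CPM in T4A. CPM values here are counts scaled to library size with TMM factors. They are not corrected for gene length, and levels are therefore not compared between genes.

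The first question was whether the mating genes differ between STF6 and its parent. The regulator genes ste11 and map1 and the kinase gene spk1 rose in STF6, and the P-factor receptor gene mam2 fell. The other 6 genes did not pass the test. A gene is said to rise or fall where its adjusted p was under 0.05 by edgeR's quasi-likelihood test with Benjamini-Hochberg adjustment over all 5951 genes. Of all genes tested, 19.2% rose and 19.2% fell in STF6, 38.4% in all, so 4 of 10 is close to the background. The 10 genes had a median log2 fold change of −0.01, against 0.03 for all genes tested.

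In STF9 map1 and spk1 rose and mam2 fell, 3 of 10 genes, while 23.0% of all genes rose and 21.3% fell, 44.2% in all. The share among the 10 was again not above the background. Their median log2 fold change was 0.16, against 0.04 for all genes. Both comparisons use the same 3 T4A libraries, so their values are not independent of each other. In the authors' deposited table for STF6, 3 of the 10 genes passed as higher and 1 as lower. Their deposited table for STF9 gave the same counts, with ste11 among the 3 (adjusted p = 0.0443).

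**Figure D1:**
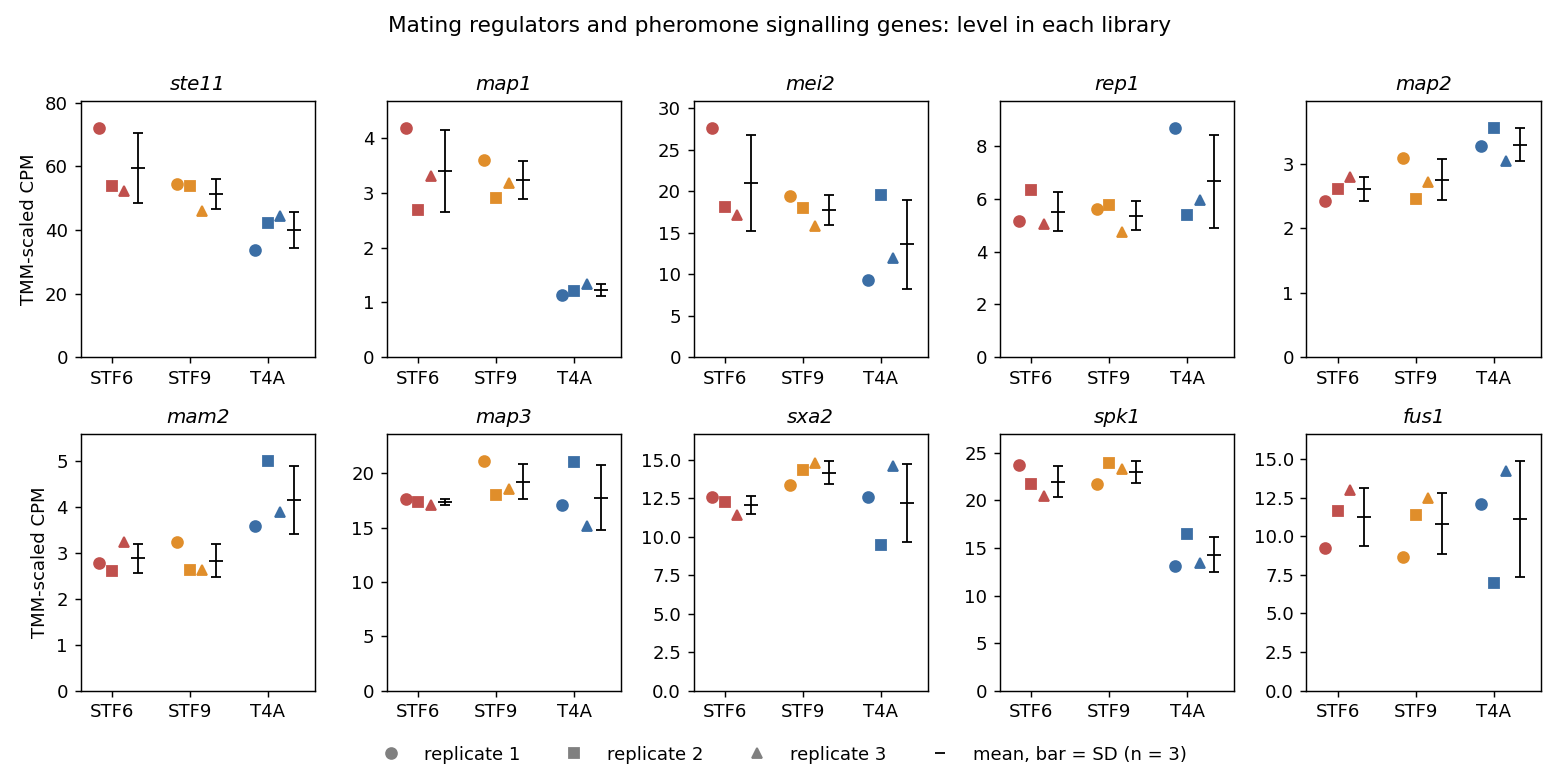
Level of each of the 10 genes in every library, in CPM scaled by TMM, with 1 panel per gene and the groups STF6, STF9 and T4A from left to right. Symbols mark replicates and the bar is the mean with its SD (n = 3). The 6 mutant libraries lie above the 3 T4A libraries for ste11, map1 and spk1 and below them for mam2, whereas T4A replicate 2 sets the width of the T4A bar for mei2 and fus1.

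Of the transcription regulators, map1 had the largest change. It encodes a MADS-box factor that works with the mating-type proteins to switch on genes of P cells. Its level was 4.19, 2.70 and 3.30 CPM in the STF6 libraries, 3.61, 2.91 and 3.19 CPM in the STF9 libraries, and 1.13, 1.21 and 1.34 CPM in the T4A libraries. The lowest mutant library was thus above the highest T4A library. The log2 fold change was 1.46 ± 0.22 (SE) in STF6, a 2.75-fold rise (adjusted p = 3.27e-04), and 1.39 ± 0.22 in STF9, a 2.63-fold rise (adjusted p = 5.09e-04). Among the 5951 genes it ranked 56th from the top in STF6 and 61st in STF9. These levels rest on few counts, 53 to 90 per library in STF6, 52 to 70 in STF9 and 21 to 32 in T4A.

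The master regulator gene ste11 moved less. It stood at 72.1, 53.9 and 52.2 CPM in STF6, 54.4, 53.9 and 46.1 CPM in STF9, and 33.7, 42.3 and 44.3 CPM in T4A. All mutant libraries were above all T4A libraries, STF9 replicate 3 by the smallest margin. In STF6 ste11 rose by 0.57 ± 0.14 on the log2 scale (1.48-fold, adjusted p = 0.00681). That call depended on STF6 replicate 1, its highest library, since without it the value was 0.39 (adjusted p = 0.0513). In STF9 the fold change of 0.36 ± 0.14 fell just short of the threshold (adjusted p = 0.0517). It passed without T4A replicate 2 (0.40, adjusted p = 0.00933), without T4A replicate 3 (0.44, adjusted p = 0.0273) and with no filter on low counts (0.36, adjusted p = 0.0475). In the other 10 of 13 alternatives it did not pass, with values down to 0.247 and adjusted p up to 0.181.

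mei2 encodes the RNA-binding protein that commits cells to meiosis, and its gene is a known target of Ste11. Its level was 27.6, 18.1 and 17.1 CPM in STF6, 19.4, 18.0 and 15.7 CPM in STF9, and 9.28, 19.5 and 11.9 CPM in T4A. T4A replicate 2 was inside the range of the STF6 libraries and above every STF9 library, while the other T4A libraries were below all 6 mutant libraries. Fold changes were 0.64 ± 0.25 in STF6 (adjusted p = 0.0565) and 0.39 ± 0.25 in STF9 (adjusted p = 0.211), and neither passed. Without T4A replicate 2 both passed, at 0.99 in STF6 (adjusted p = 4.76e-05) and 0.74 in STF9 (adjusted p = 0.00108). In STF6 mei2 also passed with DESeq2 as run here (0.61, adjusted p = 0.0386), with library size alone (0.72, adjusted p = 0.0439) and with no filter (0.64, adjusted p = 0.0499). In the authors' deposited DESeq2 result for STF6 it did not pass (0.58, adjusted p = 0.0686). Other libraries moved it down: without STF6 replicate 1 the STF6 value was 0.365 (adjusted p = 0.296), and without T4A replicate 1 the STF9 value was 0.18 (adjusted p = 0.571).

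rep1 encodes an activator of MBF, the factor that drives genes of DNA synthesis, and acts ahead of premeiotic replication. It had 5.17, 6.36 and 5.05 CPM in STF6, 5.62, 5.76 and 4.73 CPM in STF9, and 8.69, 5.40 and 5.94 CPM in T4A. Replicate 1 alone set the T4A mean apart, and the other 2 T4A libraries lay among the mutant ones. The log2 values were −0.27 ± 0.19 in STF6 (adjusted p = 0.283) and −0.32 ± 0.19 in STF9 (adjusted p = 0.196).

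Of the pheromone and receptor genes, only mam2 passed. It encodes the receptor through which M cells sense P-factor. Levels were 2.79, 2.61 and 3.24 CPM in STF6, 3.25, 2.63 and 2.62 CPM in STF9, and 3.58, 4.996 and 3.89 CPM in T4A, with T4A replicate 2 highest and no overlap between mutant and T4A libraries. Counts were 52 to 60 per library in STF6, 47 to 63 in STF9 and 73 to 93 in T4A. On the log2 scale mam2 fell by 0.53 ± 0.19 in STF6 (adjusted p = 0.0400) and by 0.54 ± 0.19 in STF9 (adjusted p = 0.0332). Both calls were lost without T4A replicate 2, at −0.39 (adjusted p = 0.119) in STF6 and −0.40 (adjusted p = 0.107) in STF9. In STF6 the call was also lost when replicate 1 of that mutant was left out (adjusted p = 0.101), or replicate 2 (adjusted p = 0.122). In STF9 it was lost without its replicate 2 (adjusted p = 0.0929) and without its replicate 3 (adjusted p = 0.114). DESeq2 as run here did not call mam2 in STF6 (adjusted p = 0.0531). The authors' deposited DESeq2 result did, at −0.57 (adjusted p = 0.0162), so the 2 runs differ on this call.

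map2, the gene of the P-factor precursor, had 2.42, 2.61 and 2.81 CPM in STF6, 3.09, 2.46 and 2.73 CPM in STF9, and 3.29, 3.56 and 3.06 CPM in T4A. The STF6 libraries were all below the T4A libraries, and 1 STF9 library overlapped them. The log2 fold changes of −0.34 ± 0.17 in STF6 (adjusted p = 0.137) and −0.25 ± 0.17 in STF9 (adjusted p = 0.246) did not pass. Its counts were low, 44 to 73 per library.

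map3 encodes the M-factor receptor of P cells, the counterpart of mam2. Values of 17.6, 17.3 and 17.1 CPM in STF6, 21.1, 18.0 and 18.6 CPM in STF9 and 17.1, 21.0 and 15.2 CPM in T4A overlapped between each mutant and T4A, while the STF9 libraries were all above the STF6 libraries. The log2 fold change was −0.03 ± 0.14 in STF6 (adjusted p = 0.874), where its sign turned with library size alone and without T4A replicate 2, and 0.12 ± 0.14 in STF9 (adjusted p = 0.488). With single libraries left out the STF9 value ran from 0.02 without T4A replicate 3 to 0.26 without T4A replicate 2.

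sxa2, the gene of the serine carboxypeptidase that inactivates P-factor, had 12.6, 12.2 and 11.4 CPM in STF6, 13.3, 14.4 and 14.8 CPM in STF9, and 12.6, 9.48 and 14.6 CPM in T4A. The T4A libraries spanned more than the mutants, with replicate 2 lowest. Its values were −0.02 ± 0.15 in STF6 (adjusted p = 0.926), with a sign that turned with library size alone and without T4A replicate 3, and 0.21 ± 0.15 in STF9 (adjusted p = 0.276). The STF9 value ran from 0.06 without T4A replicate 2 to 0.36 without T4A replicate 3.

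In the MAP kinase cascade, spk1 rose in both mutants. It encodes the MAP kinase at the end of the pheromone cascade. The STF6 libraries had 23.7, 21.8 and 20.5 CPM and the STF9 libraries 21.7, 23.9 and 23.3 CPM, against 13.1, 16.4 and 13.4 CPM in T4A. All mutant libraries were above all T4A libraries by a margin wider than the spread within any group. The log2 fold change was 0.62 ± 0.13 in STF6 (1.54-fold, adjusted p = 0.00207) and 0.69 ± 0.13 in STF9 (1.61-fold, adjusted p = 0.00113). With map1 it was 1 of the 2 genes that passed in both mutants under all 13 alternatives that were run for each comparison, and adjusted p for spk1 reached at most 0.0172 in STF6 and 0.0101 in STF9.

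fus1, a formin that builds the actin focus at the site of cell fusion, had 9.26, 11.6 and 13.0 CPM in STF6, 8.65, 11.4 and 12.4 CPM in STF9, and 12.1, 6.95 and 14.2 CPM in T4A. The groups overlapped, with T4A replicate 2 below every other library. Its log2 fold change was 0.01 ± 0.23 in STF6 (adjusted p = 0.978) and −0.05 ± 0.23 in STF9 (adjusted p = 0.881). The STF6 sign turned with median-ratio scaling, and both signs turned when single libraries were left out.

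An antisense RNA is annotated at 2 of the 10 genes. fus1-antisense-1 (SPNCRNA.1026) had 11.6, 11.8 and 11.8 CPM in STF6, 11.0, 12.3 and 10.7 CPM in STF9, and 23.4, 19.7 and 25.4 CPM in T4A. All mutant libraries were below all T4A libraries. Log2 fold changes were −0.96 ± 0.13 in STF6 (0.514-fold, adjusted p = 1.19e-04) and −1.01 ± 0.13 in STF9 (0.495-fold, adjusted p = 8.95e-05), and it fell under all 13 alternatives in both. How the counting treated strand is not stated, so reads of fus1 and of its antisense RNA cannot be told apart with certainty. map1-antisense-1 (SPNCRNA.1067) had 3 to 9 counts per library in STF6, 3 to 7 in STF9 and 3 to 12 in T4A and was too low to be tested.

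**Figure D2:**
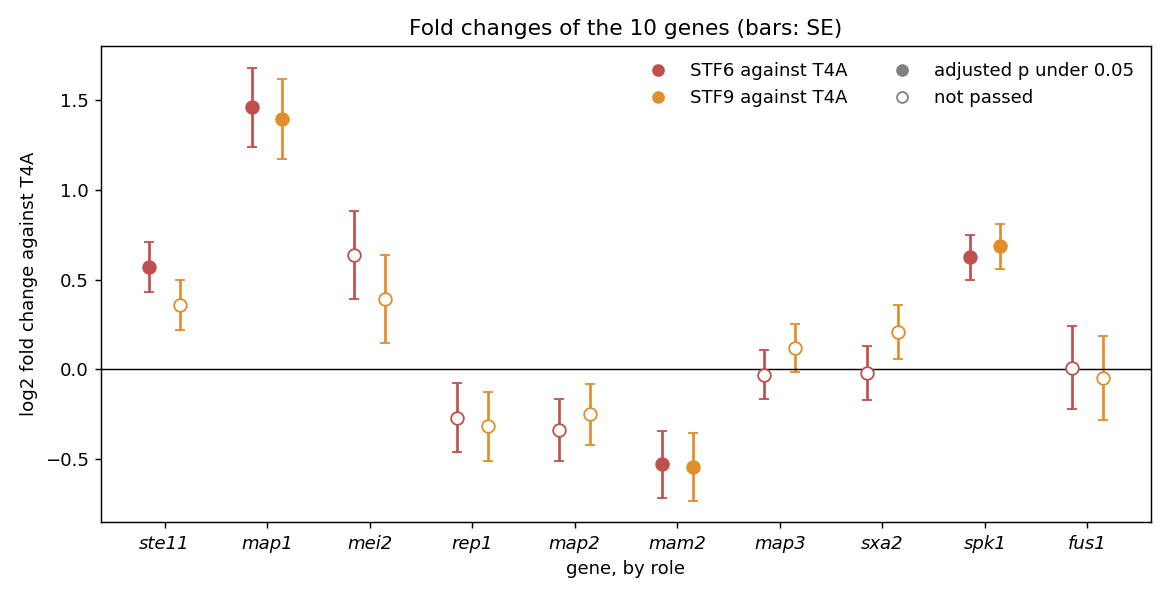
Log2 fold change of each gene in STF6 and in STF9 against T4A, with bars for the SE. Filled points passed the test. map1, spk1 and, in STF6 only, ste11 are filled above 0, mam2 is filled below 0, and the points of map3, sxa2 and fus1 lie within 0.21 of 0.

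T4A replicate 2 moved with several of these results. Relative to the mean of T4A replicates 1 and 3, its log2 CPM was 0.89 higher for mei2, 0.41 for mam2, 0.38 for map3 and 0.31 for spk1, and 0.91 lower for fus1, 0.51 for sxa2 and 0.41 for rep1. For ste11, map1 and map2 it differed by 0.13, −0.03 and 0.16. Over all genes tested the median of this difference was −0.01, and 16.3% of genes lay at −0.5 or lower. No share was computed for the high side, so the higher values, that of mei2 among them, have no background beside them. Without this library 4 of the 10 genes rose in STF6 and 4 in STF9, namely ste11, map1, mei2 and spk1 in each, and none fell. The share of all genes that rose or fell was not computed for fits with a library left out. Counts from such fits, here and below, therefore have no background beside them.

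**Figure D3:**
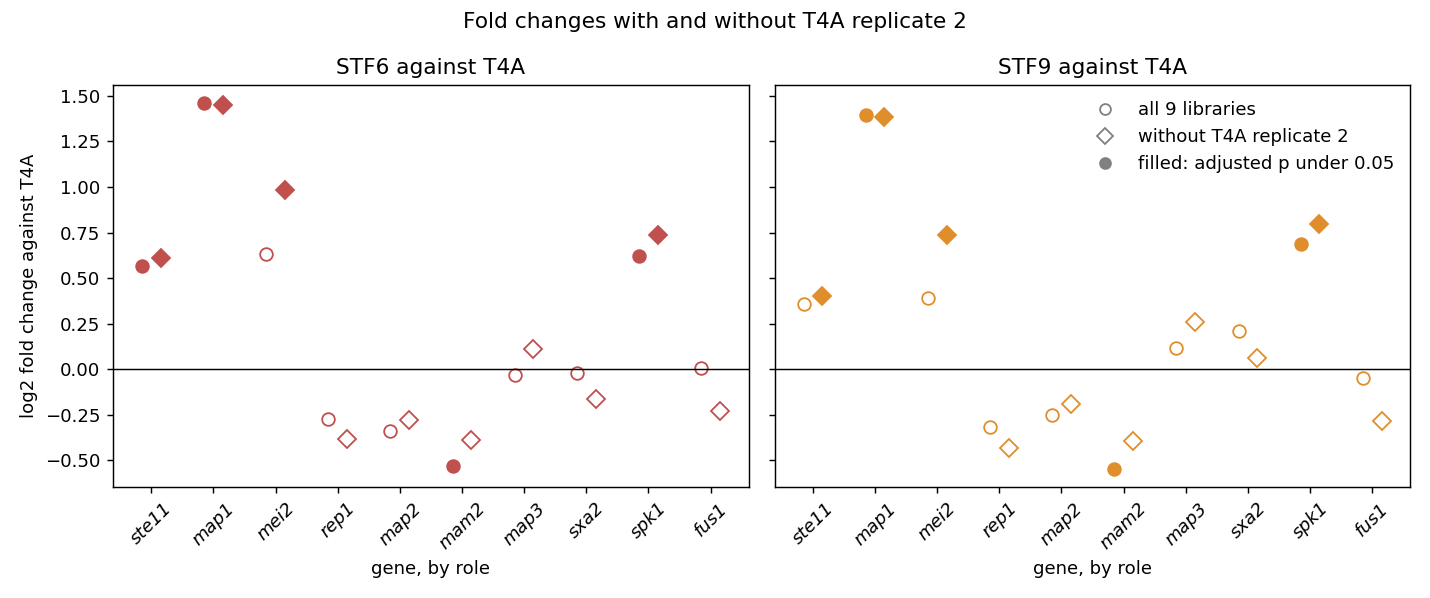
Log2 fold change of the 10 genes against T4A with all 9 libraries (circles) and without T4A replicate 2 (diamonds), for STF6 on the left and STF9 on the right. Filled symbols passed the test. Leaving the library out fills mei2 in both panels and ste11 in STF9, and empties mam2 in both.

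Set against STF6, none of the 10 genes passed the test in STF9, where 0 of 5951 genes, 0%, passed with edgeR. Unadjusted p was under 0.05 for 178 genes, none of them among the 10, and DESeq2 called 1 gene, also not among them. This does not show that the 10 genes have the same level in both mutants. The STF9 libraries lay above all STF6 libraries for sxa2 (0.23 ± 0.15, adjusted p = 0.980) and map3 (0.15 ± 0.14, adjusted p = 0.980), and the other 8 genes overlapped. Libraries did not overlap in 17.0% of all genes in this comparison. The log2 values of ste11 and mei2 were −0.21 ± 0.14 and −0.24 ± 0.24 (adjusted p = 0.980 for each). Both depended on STF6 replicate 1, without which ste11 was at −0.05 and mei2 at 0. ste11, mei2 and map1 averaged highest in STF6, then STF9, then T4A over all libraries, while spk1 averaged highest in STF9.

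Against T4A, libraries did not overlap for 5 of the 10 genes in STF6 (3 higher and 2 lower), where 50.3% of all genes did not overlap. In STF9 this held for 4 genes (3 higher and 1 lower), and for 54.0% of all genes.

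The profiles of the 10 genes over the 9 libraries were compared in log2 CPM, as a description. The root mean square difference between centred log2 CPM profiles was smallest for map2 and mam2 (0.16), map2 and map3 (0.19), ste11 and spk1 (0.20), and ste11 and mei2 (0.22). It was largest between map1 and mam2 (0.90). By the same measure the genes most like ste11 were vps1301 (0.12), cid1 (0.12), wtf23 (0.12), SPBC28E12.04 (0.13) and mtx1 (0.14). Those most like mei2 were SPBC19C7.05 (0.16), dad5 (0.19), ssc1 (0.20), dao1 (0.20) and SPBC409.08 (0.20). Neither set holds another member.

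Markers of both mating types were checked, since the labels give no mating type. Of 11 M cell markers, the 4 mating-type genes mat1-Mc, mat1-Mi, mat3-Mc and mat3-Mm were listed at 0 counts in every library. A count of 0 still allows an expected count of up to about 3 per library, provided that no reads were discarded. mat1 and mat3 hold near-identical copies, and the treatment of reads that match both is not given. The M-factor genes mfm1, mfm2 and mfm3 had 5 to 26 counts per library. Summed over the 11 markers, the level was 99.98 to 109.5 CPM in STF6, 106 to 113 CPM in STF9 and 128 to 156 CPM in T4A. Of 7 P cell markers 3 matched a feature, map2, map3 and the adhesin gene map4, and summed to 53.9 to 58.1 CPM in STF6, 53.6 to 62.8 CPM in STF9 and 54.6 to 80.6 CPM in T4A. T4A replicate 2 had the highest sum of both lists. Of the 7 M cell markers that could be tested, 4 fell in STF6 and 4 in STF9, beside 19.2% of all genes in STF6 and 21.3% in STF9, and 0 of the 3 P cell markers passed in either by edgeR or DESeq2. Unadjusted p was under 0.05 for 0 of the 3 in STF6 and for 1, map4, in STF9. Without T4A replicate 3, map4, named after its values were seen, fell in each mutant. The M list includes mam2 and sxa2, and the P list map2 and map3. The part of mating-type composition in the results was not tested.

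The M cell markers that fell in both mutants were mam2, mam1, mam3 and mfm3. Of the other markers tested, mfm1, mfm2 and sxa2 did not pass and differed in direction. Log2 values in STF6 and STF9 were −0.745 and −0.77 for mfm1, 0.55 and −0.29 for mfm2, and −0.02 and 0.21 for sxa2. mam1, the M-factor transporter gene, had 31.6, 39.1 and 32.5 CPM in STF6, 37.8, 34.6 and 32.5 CPM in STF9, and 39.95, 49.96 and 45.4 CPM in T4A. Its log2 fold change was −0.39 ± 0.12 in STF6 (adjusted p = 0.0209) and −0.37 ± 0.12 in STF9 (adjusted p = 0.0247). The mam1 call was lost in 3 of 13 alternatives in each mutant, with adjusted p up to 0.0741 in STF6 and 0.102 in STF9. mam3, the gene of an adhesin for conjugation, fell by 0.52 ± 0.10 in STF6 and 0.43 ± 0.10 in STF9 on the log2 scale. mfm3 fell by 0.89 ± 0.31 in STF6 and 0.80 ± 0.31 in STF9, on 8 to 16 counts per mutant library against 23 to 26 in T4A (adjusted p = 0.0359 in STF6 and 0.0488 in STF9). That call was lost in 7 of 12 alternatives in STF6 and 10 of 12 in STF9, DESeq2 among them (adjusted p = 0.0853 in STF6 and 0.107 in STF9), and without STF9 replicate 3 the STF9 value was −0.53 (adjusted p = 0.204). Without T4A replicate 2 the count of M markers that fell was 2 in each mutant, since mam2 and mfm3 were lost. In STF6 it was 1 without its replicate 1 and 2 without its replicate 2 or 3. In STF9 it was 1 without its replicate 2 or 3. mfm1, mfm2 and mfm3 encode near-identical peptides, so their counts are uncertain.

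Among 27 other genes of pheromone response and mating, 6 rose and 9 fell in STF6, and 5 rose and 8 fell in STF9. The list is not separate from the mating-type markers above. It also holds mam1, mam3 and mfm3, whose falls are thus counted in both lists. Among all genes 19.2% rose and 19.2% fell in STF6, and 23.0% rose and 21.3% fell in STF9, so the number that rose was near the background in STF6 and under it in STF9. The number that fell was above the background in each, but it depended on single libraries, as given below. The list's median log2 fold change was −0.22 in STF6 and −0.29 in STF9. Upstream of Spk1, the MAP kinase kinase gene byr1 rose in both, with 77.4, 66.3 and 66.9 CPM in STF6, 62.5, 63.7 and 66.2 CPM in STF9, and 50.2, 43.2 and 50.7 CPM in T4A. The log2 fold change was 0.55 ± 0.09 in STF6 (adjusted p = 7.11e-04) and 0.42 ± 0.09 in STF9 (adjusted p = 0.00385). ste4, whose product is an adaptor of the MAP kinase kinase kinase Byr2, rose by 0.63 ± 0.16 in STF6 and 0.73 ± 0.16 in STF9. Its T4A libraries at 6.97, 6.32 and 8.92 CPM were below all mutant libraries, the lowest of which had 9.96 CPM.

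Genes around Ras1 moved in both directions. ras1 itself rose, by 0.39 ± 0.09 in STF6 (adjusted p = 0.00544) and 0.33 ± 0.09 in STF9 (adjusted p = 0.0125). The ras1 call in STF9 was lost in 3 of 13 alternatives, with adjusted p up to 0.0624. scd1, the gene of a guanine nucleotide exchange factor of the Ras1 pathway, rose by 0.42 ± 0.08 in STF6 and 0.33 ± 0.08 in STF9. Of list genes picked after their values were seen, gap1, which encodes the GTPase-activating protein of Ras1, fell by 0.34 ± 0.10 in STF6 (adjusted p = 0.0136) and 0.39 ± 0.10 in STF9 (adjusted p = 0.00637). byr2 fell in STF6 (−0.35 ± 0.12, adjusted p = 0.0307) and was at −0.30 ± 0.12 in STF9 (adjusted p = 0.0525). scd2, for a scaffold of Scd1, fell in STF9 (−0.30 ± 0.10, adjusted p = 0.0240) and was at −0.22 ± 0.10 in STF6 (adjusted p = 0.0838). Of 13 alternatives, the byr2 call in STF6 was lost in 4 and the scd2 call in STF9 in 2, byr2 passed in STF9 in 5, and gap1 passed in all 13 in both mutants. ral2 did not pass, at −0.09 ± 0.07 in STF6 and −0.13 ± 0.08 in STF9. ste6, also of this list and picked in the same way, rose in STF6 (0.55 ± 0.13, adjusted p = 0.00557). In STF9 ste6 was at 0.28 ± 0.13 (adjusted p = 0.103). Outside that branch, cfr1, whose product takes part in cell fusion as an exomer subunit, rose by 0.43 ± 0.11 in STF6 and 0.61 ± 0.11 in STF9. Other list genes, picked after their values were seen, fell in STF6. These were dni1 (−0.61, adjusted p = 0.0072), dni2 (−0.65, adjusted p = 0.0082), prm1 (−0.43, adjusted p = 0.0253) and tht1 (−0.48, adjusted p = 0.0223). In STF9 dni1 fell (−0.50, adjusted p = 0.0182), while dni2, prm1 and tht1 did not pass. Without STF6 replicate 1 the number of these 27 genes that fell in STF6 was 4, and without STF9 replicate 2 or 3 the number that fell in STF9 was 3 or 2.

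Of 36 genes that act on ste11, 7 rose and 10 fell in STF6, and 6 rose and 13 fell in STF9, with median log2 fold changes of −0.07 in STF6 and −0.13 in STF9. The shares that rose were at the background of 19.2% in STF6 and under that of 23.0% in STF9, while 19.2% of all genes fell in STF6 and 21.3% in STF9. The activator gene rst2, for a zinc finger factor held down by protein kinase A, fell by 0.48 ± 0.07 in STF6 (adjusted p = 3.27e-04) and 0.55 ± 0.07 in STF9 (adjusted p = 1.19e-04). atf1, a target factor of the stress MAP kinase, fell by 0.57 ± 0.09 in STF6 and 0.52 ± 0.09 in STF9. cip1, which encodes an RNA-binding protein of the stress response, fell by 0.59 ± 0.11 in STF6 and 0.66 ± 0.11 in STF9. pka1, the catalytic subunit of protein kinase A and a repressor of ste11 transcription, fell by 0.51 ± 0.09 in STF6 and 0.47 ± 0.09 in STF9. Its libraries ranged from 77.1 to 82.5 CPM in STF6, 79.1 to 86.7 CPM in STF9 and 105 to 128 CPM in T4A. Some genes of this list were picked after their values were seen. Of these, cyr1 rose by 0.37 ± 0.08 in STF6 and 0.30 ± 0.08 in STF9, and git11 by 0.82 ± 0.20 and 0.75 ± 0.20. By contrast, gpa2, git1 and git5 fell in both mutants. Without T4A replicate 2, 11 genes of this list rose in STF6, a fit for which the share of all genes was not computed.

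The stress MAP kinase kinase kinase gene wis4 rose by 0.39 ± 0.08 in STF6 and 0.45 ± 0.08 in STF9. lsg1 encodes a subunit of the Lsk1 complex, a kinase of the CTD of RNA polymerase II that is needed for full induction of ste11. Its level was 14.3, 13.9 and 14.7 CPM in STF6, 16.3, 18.7 and 18.6 CPM in STF9, and 10.4, 7.35 and 10.8 CPM in T4A, and no libraries overlapped between mutants and parent. The log2 values were 0.58 ± 0.15 in STF6 (adjusted p = 0.00867) and 0.91 ± 0.15 in STF9 (adjusted p = 5.82e-04). The kinase and cyclin genes lsk1 and lsc1, named after their values were seen, did not pass, at −0.12 ± 0.11 and −0.01 ± 0.11 in STF6 and −0.15 ± 0.11 and 0.27 ± 0.11 in STF9.

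**Figure D4:**
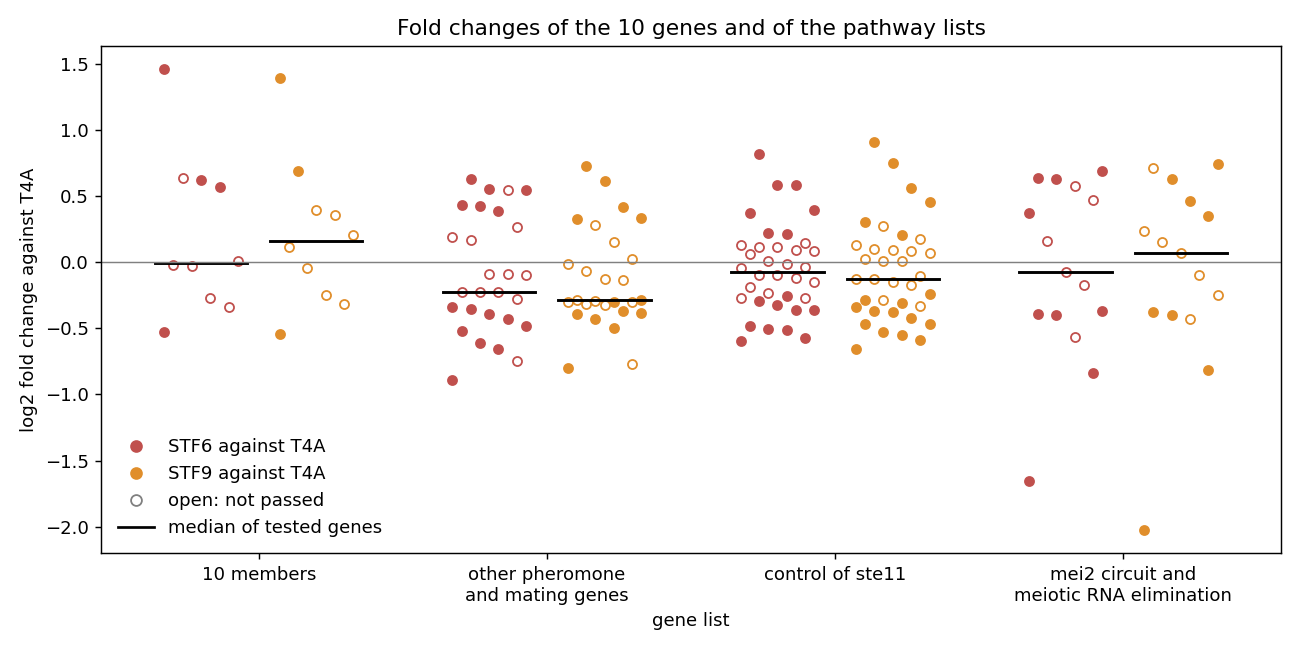
Log2 fold change against T4A of every tested gene of the 10 members and of 3 lists of the pathway, in STF6 and STF9. Filled points passed the test and black bars are list medians. In each list filled points lie on both sides of 0, and the lowest point is sme2.

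Around Mei2, the largest change was in sme2, the gene of meiRNA, the RNA partner of Mei2. It had 0.791, 0.740 and 0.810 CPM in STF6, 0.721, 0.559 and 0.514 CPM in STF9, and 1.91, 3.27 and 2.26 CPM in T4A. These are 13 to 17 counts per STF6 library and 10 to 14 per STF9 library, against 39 to 57 in T4A, and the groups were far apart. sme2 fell by 1.65 ± 0.26 on the log2 scale in STF6 (adjusted p = 4.68e-04) and by 2.02 ± 0.28 in STF9 (adjusted p = 1.65e-04). Without T4A replicate 2, its highest library, it fell by 1.42 in STF6 and by 1.79 in STF9, and it passed in all 12 alternatives that kept the gene. mei4, the forkhead factor gene of meiosis, had 3.63, 2.53 and 3.62 CPM in STF6, 3.19, 3.07 and 3.55 CPM in STF9, and 5.89, 5.69 and 5.73 CPM in T4A. It fell by 0.83 ± 0.17 in STF6 (adjusted p = 0.00239) and 0.82 ± 0.17 in STF9 (adjusted p = 0.00274).

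red1, a factor that eliminates meiotic transcripts from growing cells, rose by 0.64 ± 0.15 in STF6 and 0.74 ± 0.15 in STF9. Its T4A libraries were uneven, at 37.0, 24.2 and 38.1 CPM with replicate 2 lowest, and all were below the 48.7 CPM of the lowest mutant library. Of the MBF genes, res2 rose (0.63 ± 0.13 in STF6 and 0.46 ± 0.13 in STF9), whereas res1 (−0.40 ± 0.08 in each) and rep2, the mitotic counterpart of rep1 (−0.39 ± 0.10 in STF6 and −0.37 ± 0.10 in STF9), fell. In all, 15 of the 17 genes on this list could be tested. Of these 4 rose and 5 fell in STF6 and 4 rose and 4 fell in STF9, beside 19.2% of all genes that rose and 19.2% that fell in STF6 and 23.0% that rose and 21.3% that fell in STF9. Its median log2 fold changes were −0.08 in STF6 and 0.07 in STF9. The number that rose was 2 without STF6 replicate 1 or 2, 1 without STF9 replicate 2 and 2 without STF9 replicate 3.

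**Figure D5:**
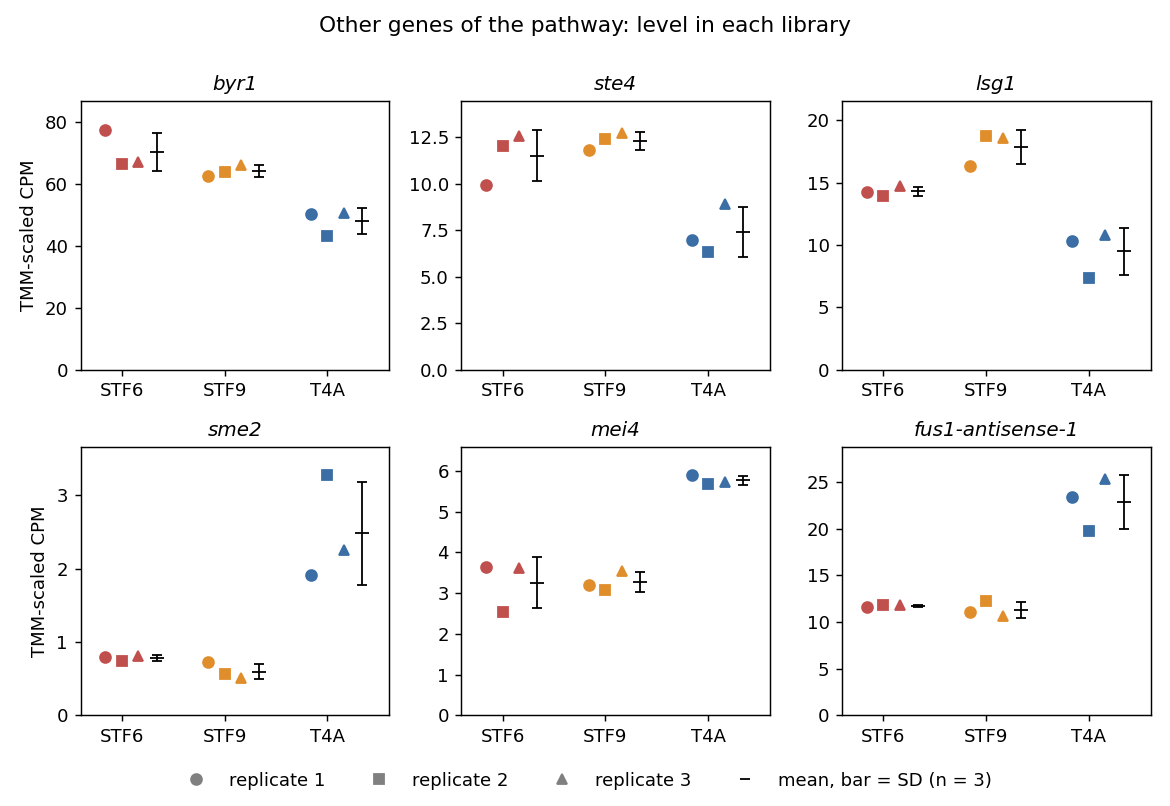
Level in every library of 6 other genes, in CPM scaled by TMM, with the groups STF6, STF9 and T4A from left to right and bars for the mean and SD (n = 3). All mutant libraries lie above all T4A libraries for byr1, ste4 and lsg1 and below them for sme2, mei4 and fus1-antisense-1.

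Genes of the nutrient states that control mating were read beside these results. Of 9 genes tied to nitrogen starvation, 1 rose and 5 fell in STF6, and 1 rose and 4 fell in STF9. Among all genes tested, 19.2% rose and 19.2% fell in STF6, and 23.0% rose and 21.3% fell in STF9. These shares also stand beside the counts of the glucose and stress lists below. The oligopeptide transporter gene isp4 rose, with 89.4, 105 and 104 CPM in STF6, 96.0, 97.7 and 87.0 CPM in STF9, and 20.5, 24.1 and 19.7 CPM in T4A (log2 fold change 2.22 ± 0.10 in STF6 and 2.13 ± 0.10 in STF9). The amino acid permease gene isp5 fell, at −0.92 ± 0.20 in each mutant. The 9 genes summed to 676 to 683 CPM in STF6, 646 to 684 CPM in STF9 and 705 to 983 CPM in T4A. Of 5 tested glucose-repressed genes 4 fell in each mutant, and the sums over all 6 on the list were 28.8 to 31.1 CPM in STF6, 27.1 to 29.9 CPM in STF9 and 40.4 to 56.7 CPM in T4A. Of 6 core stress genes 1 rose and 3 fell in STF6, and 0 rose and 3 fell in STF9. Their sums were 2533 to 2631 CPM in STF6, 2467 to 2538 CPM in STF9 and 2251 to 3638 CPM in T4A. T4A replicate 2 had the highest sum of each of these 3 lists. In the count of genes that rose, T4A replicate 2 also mattered: without it 2 nitrogen starvation genes and 2 core stress genes rose in each mutant, while no core stress gene rose in STF6 without T4A replicate 3 or without any 1 STF6 library. The part of these states in the results for the mating genes was not tested.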

How the data were processed

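Poly(A)+ RNA was sequenced from 9 libraries, 3 each of STF6, STF9 and the parental strain rpb1-CTD-T4A29 (T4A). Per the labels' protocols the libraries were stranded and read from both ends. The submitters' processing notes name build ASM294v2 and, as software, HISAT2 2.1.0, HTSeq 0.10.0, SAMtools and DESeq2. No source used here gives the gene annotation, whether counting respected strand, or what was done with reads that match several loci. The authors deposited raw counts per gene, and for each mutant a table with a log2 fold change, its standard error and an adjusted p-value. Depth was 15374453 to 22909747 counts per library.

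One all-zero line with a repeated ID was dropped from 6987, leaving 6986 features. edgeR 4.0.16 (R 4.3.3) with filterByExpr (5951 genes kept), TMM scaling and a quasi-likelihood fit with a mean per group over the 9 libraries gave each comparison. Benjamini-Hochberg adjustment ran over the 5951 genes, with a threshold of 0.05. CPM are scaled by TMM. Standard errors are the fold change over the square root of the F statistic. Likeness of profiles was the root mean square difference of log2 CPM (prior count 2), centred per gene. Members were matched by the Common Name of the authors' tables or, where that gave no match, by their Other Names, as were 115 of 119 entries in 8 gene lists. The members and the lists were chosen with earlier results of these data known. Besides members, many genes named are those with the smallest adjusted p, up to 6 per list, among those called. Antisense RNAs named after a member and the 5 profiles most like those of ste11 and mei2 are also named. Of the nutrient and stress lists only isp4 and isp5 are named, although isp7 and isp6 had smaller adjusted p than isp5. Named outside this rule were pho1, mfm1, mfm2, the mating-type genes, map4, gap1, byr2, scd2, ral2, lsk1 and lsc1. So were ste6, dni1, dni2, prm1, tht1, cyr1, git11, gpa2, git1 and git5, whose results were not followed through the alternatives.

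As alternatives, DESeq2 1.42.0 replaced edgeR, median-ratio factors or library size alone replaced TMM, and the filter was dropped or set to 1 CPM in every library. Each comparison was also fitted on its own 6 libraries, with replicate number as a block, and with each library left out in turn. Code for the tests was first tried on simulated counts with known changes. The supplied genome is ASM294v3, so no sequence or coordinate was read from it, and a planned search of promoters was not run. Figures used matplotlib 3.10.9.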

Additional observations from a re-analysis of the deposited data

How the results depend on the processing

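Of the single-gene results under alternatives that kept every library, 755 of 794 kept their direction and side of the threshold, 27 lost and 8 gained a call, and 4 turned sign. With library size alone, 0 of the 10 genes fell in STF6 and 0 in STF9, 1 M cell marker fell in each, and 5 pheromone genes fell in STF6 and 4 in STF9. Core stress genes that rose numbered 2 in STF6 and 1 in STF9 with that scaling, and 0 in STF6 with median-ratio scaling. DESeq2 as run here left 0 of the 10 genes and 2 M cell markers that fell in STF6. Over all genes it called 2344 in STF6 and 2691 in STF9, against 2286 and 2633 with edgeR. On only the 6 libraries compared, 0 of the 10 genes fell in either mutant. In STF6 3 nitrogen starvation genes then fell and 0 core stress genes rose, and in STF9 2 M cell markers and 5 pheromone genes fell and 2 genes of the mei2 list rose. The cause was not tested. For the other scalings, the fits on 6 libraries and the replicate block below, the share of all genes that rose or fell was not computed. Counts from those fits have no background beside them. In STF6, fus1 turned to −0.009 with median-ratio scaling, map3 to 0.045, sxa2 to 0.02 and lsc1 to 0.038 with library size alone.

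Same-numbered libraries showed no clear pairing: 3 of 9 correlations of their deviations exceeded 0.1, and the same number correlated best in 7 of 18 cases. The correlations ran from −0.306 to 0.38, and those of replicate 3 were all positive. With 3 libraries per group this check cannot show that pairing was absent. With the replicate block, 0 of the 10 genes fell in STF6 (mam2, −0.53, adjusted p = 0.054).

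With single libraries left out, 609 of 684 single-gene results kept direction and call. Of the 10 genes, 2 to 4 rose and 0 to 1 fell in each mutant. The share of all genes that rose or fell was not computed for these fits. M cell markers that fell numbered 1 to 4 in each, P cell markers 0 to 1 in each. Pheromone genes that fell numbered 4 to 11 in STF6 and 2 to 10 in STF9, and ste11 control genes that rose numbered 5 to 11 in STF6. mei2 list genes that rose numbered 2 to 4 in STF6 and 1 to 4 in STF9. Nitrogen starvation genes that rose numbered 1 to 2 in each, and core stress genes 0 to 2 in each. The log2 values of fus1 ran over −0.23 to 0.229 in STF6 and −0.283 to 0.172 in STF9, of map3 over −0.134 to 0.113 and of sxa2 over −0.163 to 0.129 in STF6. Those of lsk1 ran over −0.205 to 0.038 in STF6 and −0.234 to 0.008 in STF9, and of lsc1 over −0.071 to 0.03 in STF6. For STF9 against STF6 values ran over −0.282 to −0.054 for ste11, −0.358 to 0 for mei2, −0.221 to 0.111 for map1, −0.004 to 0.157 for map2, −0.125 to 0.078 for mam2, −0.191 to 0.079 for fus1 and −0.104 to 0.068 for rep1. Where 2 libraries remained in a group, its spread was shared with the other groups. A planned search of promoters for a Ste11 binding box was not run, since promoters of the authors' build were not used here. Low counts limit map1, map2, mam2 and sme2.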
